A study of Mus musculus with 2 samples.

Results

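The translation initiation and elongation factor genes were described in RNA from the thymus of newborn mice. They are the protein-coding genes off chromosome Y whose GENCODE symbol on GRCm38 begins with Eif1 to Eif6, Eef1 or Eef2, and no expression value entered that choice. The rule took 66 of the 21291 protein-coding genes off chromosome Y, among 43346 mouse genes in the tables. They were grouped by factor into 5 genes of eIF1, 14 of eIF2, 14 of eIF3, 16 of eIF4, 4 of eIF5, 1 of eIF6, 9 of eEF1 and 3 of eEF2. Symbols alone decide membership, so kinases, inhibitors and methyltransferases named for a factor are included beside the factors themselves.

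The study measured whole thymus of B6NCrl mice at postnatal day 0, with no genetic change or treatment named in the labels. Its 2 libraries form 1 group, with replicate 1 from pup 6 and replicate 2 from pup 7 of a Charles River C57/Bl6 female, and each was made from 13 pg of total RNA, an amount the labels equate with 1 cell. The labels list 1 donor for both pups and give their sex as not collected. RNA of more than 200 nt was extracted with the mirVana kit, and the linked protocol document is named for Smart-seq.

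Translation begins when initiation factors bring the small ribosomal subunit, the initiator tRNA and the capped mRNA together. eIF2 carries the initiator tRNA and is recharged with GTP by eIF2B, eIF3 is the large scaffold on the small subunit, and the eIF4 proteins bind the cap and unwind the leader. eIF1 and eIF1A watch the choice of start codon, eIF5 and eIF5B complete initiation, and the elongation factors eEF1A and eEF2 then deliver aminoacyl-tRNA and move the ribosome. In the thymus, dividing thymocytes make much new protein, and kinases of eIF2 and inhibitors of eIF4E lower that rate under stress or lack of nutrients.

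Several members have close copies, which limits how well reads can be assigned to one gene. Coding windows of 60 bases from pairs of copies are shown to let the reader see how many bases tell such copies apart. They come from GENCODE M21 transcripts on GRCm38, are read 5′ to 3′ on the coding strand, and carry capitals at the bases that differ within a pair. The first pair spans the codon of the lysine that is turned into hypusine in eIF5A, at bases 25 to 27 of the window, and the copies differ at 8 of 60 bases.
Eif5a: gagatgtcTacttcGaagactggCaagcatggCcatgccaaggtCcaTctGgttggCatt
Eif5a2: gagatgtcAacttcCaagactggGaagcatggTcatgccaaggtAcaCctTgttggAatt
The next pair covers the DEAD box of the eIF4A helicases, whose codons begin at base 25, and again differs at 8 of 60 bases.
Eif4a1: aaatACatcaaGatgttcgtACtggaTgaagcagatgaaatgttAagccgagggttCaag
Eif4a2: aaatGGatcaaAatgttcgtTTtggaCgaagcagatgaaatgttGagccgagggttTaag
The last pair is the first 60 coding bases of the X copy and the Y copy of the eIF2 gamma subunit, which differ at 13 bases.
Eif2s3x: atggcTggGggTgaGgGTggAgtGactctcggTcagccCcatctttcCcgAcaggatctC
Eif2s3y: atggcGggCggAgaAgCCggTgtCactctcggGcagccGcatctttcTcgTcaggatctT
Over whole coding sequences, identity was 73.2% for Eif5a and Eif5a2, 78.2% for Eif4a1 and Eif4a2, 80.1% for Eef1a1 and Eef1a2, and 86.3% for Eif2s3x and Eif2s3y. Eif3j1 and Eif3j2 were identical over all 783 aligned bases, so their reads cannot be told apart within the coding sequence. Of the 66 members, 43 shared no stretch of 100 bases with a transcript of another gene, among them Eif5a2 and Eef1a2. A further 11 shared more than 10% of such stretches. Of those 11, the members above 50% were Eif3j2 at 84.0%, Eif4ebp3 at 62.8% and Eif4a1 at 60.8%, the last with the processed pseudogene Eif4a-ps4.

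The gene tables held 25999043 expected counts in mouse genes for replicate 1 and 31902773 for replicate 2. An expected count is the authors' estimate of a gene's reads and can hold a fraction. TPM, transcripts in each 1000000 and rescaled here to mouse genes, corrects that count for transcript length and depth. Thymus markers matched the label in both libraries, with all 10 T lineage genes read in both and summing to 15070 and 14764 TPM. Thymic epithelium markers came to 2472 and 2614 TPM, although their defining gene Foxn1 was at 0 in replicate 1. All 8 erythroid markers were read in both and came to 3528 and 9426 TPM in replicates 1 and 2. Heart and skeletal muscle markers, of which 8 of 10 were read in both, came to 1537 and 487 TPM, and nerve markers, 3 of 5, to 68.3 and 62.3 TPM. The nerve sums came from different genes, Tubb3 with 2459 and 3 counts and Elavl4 with 3 and 1820. No nerve marker had more than 3 counts in both libraries. What part these cells had in the values below was not tested. In whole tissue, fewer cells of a type and less RNA per cell cannot be told apart. With 1 library from each pup and no other group, no difference has a replicate check or a p-value, and nothing says how far each spread is technical.

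Factor transcripts were abundant, and 1 gene, Eef1a1, held the largest part. Added up, the 66 members stood at 15099 TPM in replicate 1 and 15816 in replicate 2, a mean of 15457 ± 507 TPM (SD, n = 2). They took 1.77% and 1.82% of mouse counts. Eef1a1, the main carrier of aminoacyl-tRNA, gave 30.2% and 34.6% of the sum in replicates 1 and 2, and Eif5a, which relieves stalled ribosomes, gave 11.8% and 8.60%. Without Eef1a1, which was left out after its level was seen, the sums were 10532 and 10342 TPM, so replicate 2 was higher with that gene and replicate 1 without it. At a mean of 100 TPM or more stood 30 members, and 17 of these were at 200 TPM or more.

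**Figure D1:**
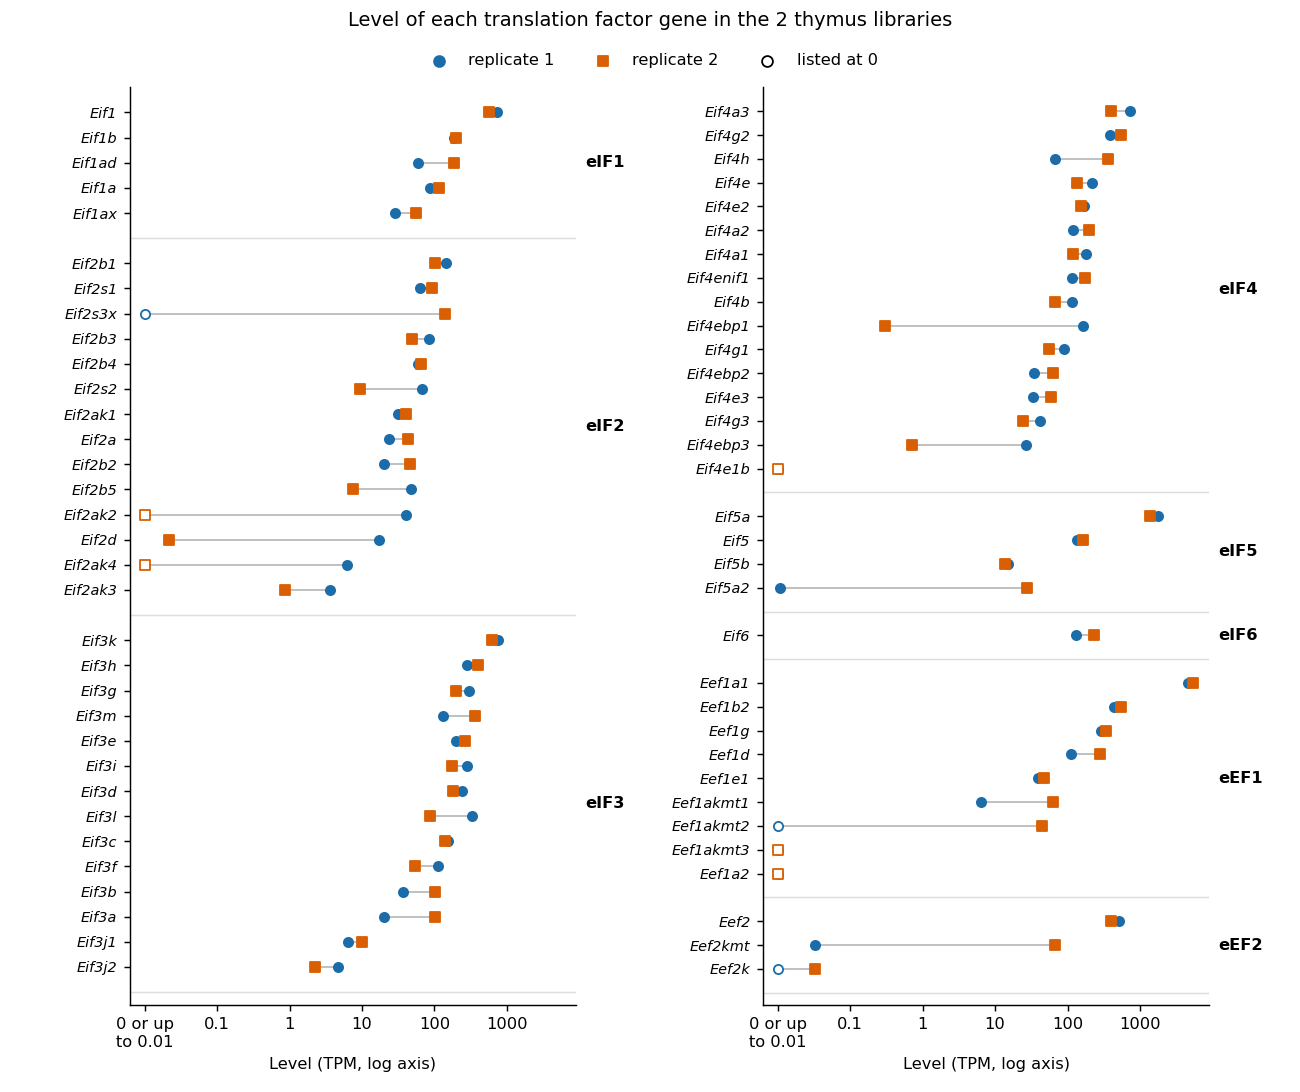
Level in TPM of each of the 66 members on a log axis, with a circle for replicate 1, a square for replicate 2 and open symbols for genes listed at 0; where symbols coincide the square lies on top. Genes are ordered by mean within each factor. Most of the abundant members have neighbouring symbols, whereas Eif2s3x, Eif4ebp1, Eif5a2, Eef2kmt and a few others lie far apart.

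The elongation factor eEF1 was the highest group, of which Eef1a1 gave 4567 and 5474 TPM, at 5454 and 6802 TPM in replicates 1 and 2. eIF3 followed at 2858 and 2697, eIF4 at 2492 and 2345, eIF5 at 1934 and 1562, and eIF1 at 1104 and 1121 TPM. eIF2 summed to 608 and 598, eEF2 to 518 and 459, and the single gene of eIF6 to 131 and 232 TPM. This order was the same in both libraries, although eIF3 and eIF4 lay close to each other. The groups eIF2 and eIF1 kept nearly level sums while members inside eIF2 parted widely.

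**Figure D2:**
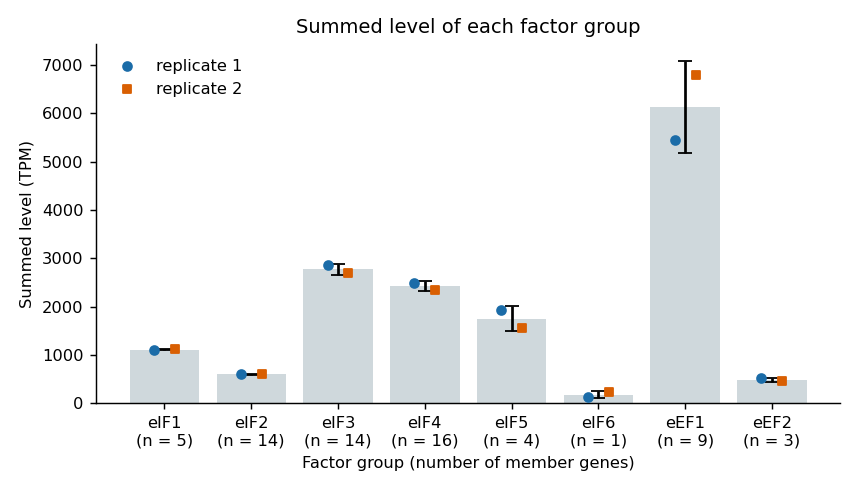
Summed TPM of each factor group, with the bar at the mean of both libraries, the error bar at 1 SD (n = 2) and points for replicate 1 (circle) and replicate 2 (square). The eEF1 bar stands at 6128 ± 953 TPM, of which Eef1a1 gives 5020, and the eIF2 bar at 603 ± 7.59 TPM.

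Read against all genes, the members were seen in both libraries more often and, at a mean of 100 or more counts, parted less often. At 1 or more counts, 58 of 66 members were read in both libraries, 5 in 1 and 3 in neither (Eef1a2, Eef1akmt3 and Eif4e1b), against 32.3% of protein-coding genes read in both. Fold was judged on TPM + 1 for genes whose counts averaged at least 100, and 62 members did. Of these, 14 (22.6%) were 4-fold or more apart, whereas the share over all protein-coding genes at that minimum was 50.5%. Of the 14, 7 were higher in replicate 2, where the share of all genes was 29.2%, and 7 in replicate 1, where it was 21.2%. Another 40 members were less than 2-fold apart and 8 between 2-fold and 4-fold. On the log2 scale, with replicate 2 over replicate 1, the members had a median of 0.17 and all protein-coding genes one of 0.18.

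**Figure D3:**
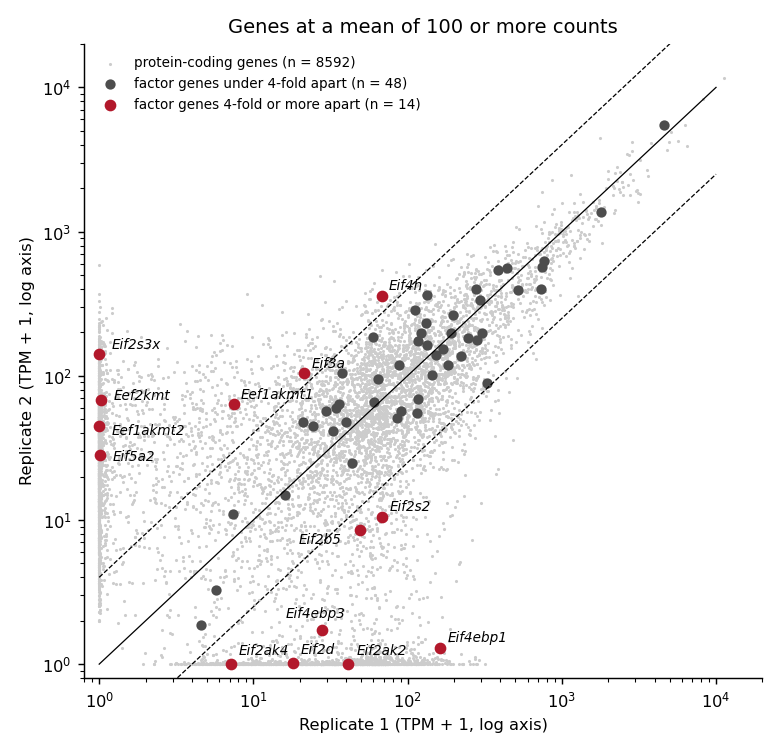
TPM + 1 in replicate 1 against replicate 2, on log axes, for the 8592 protein-coding genes that average 100 counts or more (grey), for the 48 members under 4-fold apart (dark) and for the 14 at 4-fold or more (red, named). The solid line marks equal levels and the dashed lines 4-fold. The dark points follow the diagonal, while 4 red points lie along the left axis and 5 along the bottom, where a library had few or no counts.

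The share of genes apart differed by level, here counted at each level of TPM with no count minimum. Under 10 TPM, members were 4-fold apart in 2 of 9 cases (22.2%), against 9.02% of 14109 protein-coding genes. Genes read in neither library have levels at or near 0 and count here as not apart. They number 10262 among all protein-coding genes and 3 among members, so the shares at this level cannot be compared. Members with a mean of 10 to 50 TPM were 4-fold apart in 8 of 17 cases (47.1%), against 67.9% of all protein-coding genes at that level. From 50 to 100 TPM the counts were 3 of 10 members against 31.2%, and from 100 to 200 TPM 0 of 13 against 15.3%. At 200 TPM or more, 1 of 17 members (5.88%) was 4-fold apart, against 4.40%. At 50 to 100 TPM and at 200 TPM or more, the members' shares were thus near those of other genes of their level. Across the 62 members, log2(TPM + 1) of the libraries had a Pearson's r of 0.60 and a Spearman's rho of 0.77, and across 8592 protein-coding genes 0.26 and 0.38. These correlations are across genes, which are not independent replicates and share library and depth.

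**Figure D4:**
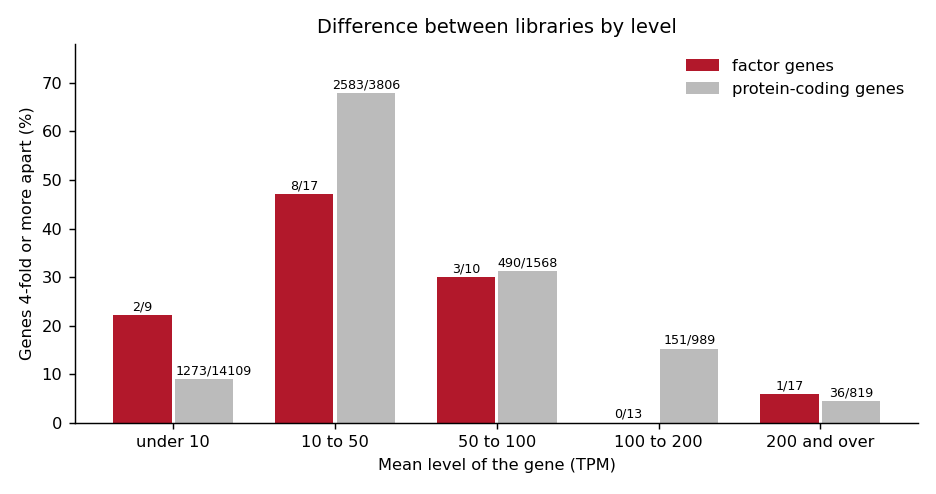
Percent of genes at least 4-fold apart between the libraries by mean TPM, for members (red) and all protein-coding genes off chromosome Y (grey), with the number of genes apart over the number in the bin above each bar. The grey share is 9.02% under 10 TPM, highest from 10 to 50 TPM and lower in each bin from there on, and no member between 100 and 200 TPM was 4-fold apart. The bin under 10 TPM also holds genes read in neither library, which count as not apart.

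Eef1a1 (chromosome 9, 78478449 to 78489151, minus strand) stood at 4567 and 5474 TPM, the fifth highest mean of all protein-coding genes off chromosome Y. Eef1a2, the form that replaces it in muscle and nerve, had 0 counts in both libraries, although muscle markers were read in both. A count of 0 allows up to 3 counts, which scaled to 1000000 mouse counts is 0.115 in replicate 1 and 0.0940 in replicate 2. Of the eEF1B subunits, which recharge eEF1A with GTP, Eef1b2 stood at 438 and 555 TPM, Eef1g at 293 and 337 and Eef1d at 111 and 283. All 3 were higher in replicate 2 and kept the same order in both libraries. Eef1e1, a scaffold of the aminoacyl-tRNA synthetase complex, was lower at 38.9 and 46.9 TPM. Eef2, the translocase (chromosome 10, 81176631 to 81182498, plus strand), stood at 518 and 393 TPM.

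Modifiers of the elongation factors stood at lower levels than the factors. Eef1akmt2, a methyltransferase of eEF1A, had 0 and 1026 counts, at least 279-fold higher in replicate 2 per mouse count against a floor of 3 counts per library. Eef1akmt1, another of them, had 97 and 1068 counts, or 6.44 and 62.8 TPM. Eef1akmt3 had 0 counts in both, and Eef1akmt4 was not analysed here. Eef2kmt, which methylates eEF2, had 1.39 and 1337 counts, a ratio of 1090 (95% exact counting interval 195 to 43068). Eef2k, the kinase that halts eEF2, had 0 and 2 counts, under the floor of 3, so no ratio is given for it. The 3 modifiers that reached a mean count of 100 were all at least 4-fold higher in replicate 2. Their mean levels lay between 10 and 50 TPM, where 67.9% of all protein-coding genes were 4-fold apart one way or the other. Without molecular identifiers in the tables, floors and intervals cover the counting of reads alone, and the RNA itself may have differed by less.

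Among the genes of start-codon choice, Eif1 was highest, at 740 and 566 TPM (chromosome 11, 100319885 to 100322096, plus strand). Its copy Eif1b, with 81.1% coding identity, stood at 189 and 198 TPM. The eIF1A genes Eif1a and Eif1ax were lower, at 86.9 and 117 TPM and at 28.7 and 56.2 TPM. Eif1ad, named for a domain shared with eIF1A, stood at 58.6 and 184 TPM and overlaps Banf1 on the other strand. No source used here gives the strand setting of the counting, so reads of overlapping genes may be mixed. No member of the eIF1 group was 4-fold apart.

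The eIF2 subunits were of similar level only in part. Eif2s1, the alpha subunit that stress kinases phosphorylate, stood at 63.5 and 93.8 TPM. Eif2s2, the beta subunit, stood at 67.6 and 9.52 TPM. Eif2s3x, the gamma subunit on the X chromosome, had 0 and 11480 counts (0 and 140 TPM), at least 3119-fold higher in replicate 2. Thus alpha was read at like levels in both pups while beta was low in replicate 2 and the X copy of gamma was at 0 in replicate 1. The Y copy Eif2s3y is no member, and its counts ran the other way, 2366 in replicate 1 and 1 in replicate 2 (67.1 and 0.0854 TPM). Each library thus had reads of a gamma gene. The processed pseudogene Gm2223, which holds 35.3% of the 100-base stretches of Eif2s3x, had 0 and 64.8 counts.

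For eIF2B, the exchange factor of eIF2, all 5 subunits were read in both libraries. Eif2b1 was highest in both, at 143 and 100.5 TPM. Eif2b2 stood at 20.1 and 46.4 TPM, Eif2b3 at 84.7 and 49.7, and Eif2b4 at 59.2 and 65.2. Eif2b5, the catalytic subunit, stood at 48.3 and 7.53 TPM. It passed 4-fold in TPM, while its counts per mouse count differed 3.71-fold (95% exact counting interval 3.37 to 4.10), and its call ended when counts were scaled with edgeR, DESeq2 or spike-ins. Of the eIF2 relatives that can also bring initiator tRNA, Eif2a stood at 23.5 and 43.5 TPM. Eif2d had 400 and 1 counts, a ratio of 491 (95% exact counting interval 87.6 to 19435), and it overlaps Rassf5 on the other strand.

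The eIF2 alpha kinases start the integrated stress response. Eif2ak1, the heme-regulated kinase, was even, at 31.6 and 40.6 TPM. Eif2ak2, the kinase that double-stranded RNA activates, had 577 and 0 counts, at least 236-fold lower in replicate 2. Eif2ak4, the amino acid sensor also called GCN2, had 256 and 0 counts, at least 105-fold lower in replicate 2, and its call ended with a pseudocount of 5 TPM. Eif2ak3, the kinase of the endoplasmic reticulum, was low in both at 3.56 and 0.865 TPM. So 1 of the 4 kinases was read at similar level in both pups, and the others were low or at 0 in replicate 2.

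All 14 genes of eIF3 were read in both libraries, but not at 1 common level. Eif3k (chromosome 7, 28971372 to 28981864, minus strand) was the highest subunit in both, at 764 and 620 TPM. Leaving out the j copies, the 12 subunits ran from 20.4 to 764 TPM in replicate 1 and from 54.5 to 620 in replicate 2, a span of 37.4-fold and 11.4-fold. The lowest was Eif3a in replicate 1 and Eif3f in replicate 2. Background knowledge has each subunit present once in the complex, whereas the transcript levels per length spanned this range.

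Within eIF3, Eif3h stood at 279 and 396 TPM, Eif3e at 197 and 264, and Eif3m at 133 and 361. Eif3g stood at 301 and 198 TPM, Eif3i at 280 and 177, Eif3d at 244 and 182, and Eif3c at 153 and 138. Eif3l stood at 326 and 87.9 TPM, Eif3f at 113 and 54.5, and Eif3b at 36.5 and 103. Eif3a, the large subunit on which the complex is built, had 2119 and 12056 counts, or 20.4 and 102.8 TPM, and was the only eIF3 gene that reached 4-fold in TPM. Eif3l came close, at 3.71-fold, and its counts per mouse count differed 4.03-fold. Eif3j1 and Eif3j2, the copies of the loosely bound j subunit, were read at low levels, with 88.5 and 365 counts for Eif3j1 and 221 and 120 for Eif3j2. Since their coding sequences cannot be separated, their sum is the safer value, at 11.1 and 12.3 TPM. Of the other 12 subunits, 5 were higher in replicate 2 and 7 in replicate 1.

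Cap-binding and helicase genes of eIF4 were mostly even between the pups. Eif4e, the cap-binding protein, stood at 220 and 136 TPM, Eif4e2 at 169 and 151, and Eif4e3 at 33.3 and 58.5. Eif4e1b, a form known from oocytes, had 0 counts in both. Among the helicases, Eif4a3, which sits in the exon junction complex and not in the cap complex, was highest at 731 and 402 TPM. Eif4a1 stood at 181 and 118 TPM, and Eif4a2 at 121 and 196, so that their order differed between the libraries. As the windows shown earlier make plain, these copies are told apart by scattered bases, and the pseudogene Eif4a-ps4 took 147 and 433 counts of its own.

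Of the scaffolds, Eif4g2 was highest at 384 and 540 TPM, Eif4g1 stood at 89.4 and 56.1, and Eif4g3 at 42.3 and 23.96. Eif4g2 lacks the region that binds eIF4E, and its annotated coding sequence begins with GTG. Sequences that begin with ATG were taken where a gene had one of whole codons, and only Eif4g2 of the 66 had none. The helicase cofactor Eif4b stood at 116 and 67.9 TPM. Eif4h, another cofactor, had 3180 and 19172 counts, or 66.9 and 357 TPM, and was 5.33-fold apart in TPM. It was the one member at a mean of 100 TPM or more that was 4-fold apart. The eIF4E transporter Eif4enif1 stood at 116 and 174 TPM.

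Of the inhibitors of eIF4E, which hold the cap-binding protein until mTOR phosphorylates them, 2 of 3 were 4-fold apart, and Eif4e was not. Eif4ebp1 had 2908 and 6 counts, or 161 and 0.299 TPM, a count ratio of 595 (95% exact counting interval 273 to 1622). Eif4ebp3 had 353 and 10.7 counts, or 26.8 and 0.716 TPM, with the caveat of shared stretches given earlier. Eif4ebp2 was even, at 34.7 and 62.9 TPM. Mean levels were 80.8 TPM for Eif4ebp1, 48.8 for Eif4ebp2, 13.7 for Eif4ebp3 and 178 for Eif4e. Of all protein-coding genes, 31.2% were 4-fold apart from 50 to 100 TPM, 67.9% from 10 to 50 and 15.3% from 100 to 200. The summed inhibitors stood at 223 and 63.9 TPM, so most inhibitor transcript was Eif4ebp1 in replicate 1 and Eif4ebp2 in replicate 2.

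In the eIF5 group, Eif5a (chromosome 11, 69916714 to 69921958, minus strand) stood at 1785 and 1360 TPM, second among all members. Its copy Eif5a2 had 1 and 3090 counts, or 0.0107 and 27.1 TPM, a count ratio of 2518 (95% exact counting interval 452 to 99495). Eif5a thus held nearly all eIF5A transcript in both libraries. Eif5, the GTPase activator of eIF2, stood at 133 and 161 TPM, and Eif5b, the GTPase that joins the subunits, at 15.1 and 13.8. Eif6, which keeps the large subunit apart, stood at 131 and 232 TPM.

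A member at 10 or more counts in 1 library and 3 or fewer in the other was found 7 times among the 66, or 10.6%, and the share over all protein-coding genes was 17.6%. Low in replicate 1 were Eef1akmt2, Eef2kmt, Eif2s3x and Eif5a2, and low in replicate 2 were Eif2ak2, Eif2ak4 and Eif2d. Only Eif2s3x among them is a core subunit of a factor, and the others are kinases, methyltransferases, a second copy or the eIF2 relative Eif2d. No member at a mean of 100 TPM or more was among them.

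The deposited tables also divide each gene's reads among its transcripts. Of the 30 members at 100 TPM or more, 25 had the same highest transcript in both libraries, and 16 drew at least 80% of their TPM from 1 transcript in both. For 12 of the 30 the annotation lists only 1 transcript, so both results were fixed in advance for them. The 5 whose highest transcript differed were Eef1d, Eif1a, Eif4enif1, Eif4g2 and Eif6. Eif1a moved from Eif1a-201 at 100% in replicate 1 to Eif1a-202 at 78.9% in replicate 2, both protein coding. In Eif6 the transcript Eif6-207, of the class marked for nonsense-mediated decay, was highest in replicate 1 at 42.2%, and the coding Eif6-201 was highest in replicate 2 at 66.1%. For Eif4g2, Eif4g2-213 gave 32.2% and 67.1%.

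Transcripts annotated as not protein coding held a large share of several members. They gave 29.3% and 27.7% of Eef1a1, mostly Eef1a1-204, a processed transcript of 505 bases beside the coding Eef1a1-201 of 1794. In Eef1b2 they gave 47.3% in both libraries, and in Eif4a2, in which they include decay and retained-intron forms, 50.3% and 55.9%. In Eif4a3 they gave 26.4% and 27.02%, and in Eif1 36.6% and 28.7%. Eif4enif1 was the only 1 of the 30 whose highest transcript by mean was not coding, the retained intron Eif4enif1-211 at 24.9% and 30.3%. A short transcript turns few reads into many TPM, so these shares rest on the authors' division of reads between overlapping models.

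**Figure D5:**
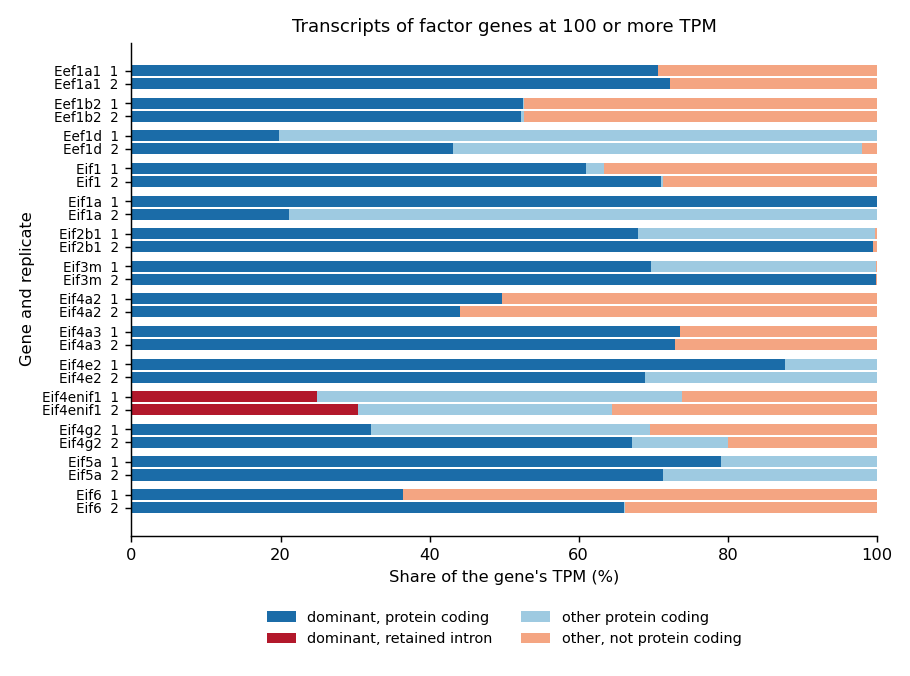
Share of each gene's TPM, in percent, held by its dominant transcript and by other transcripts, in replicates 1 and 2, for the members at 100 TPM or more whose dominant transcript held under 80% in a library or differed between libraries. Blue is the dominant transcript if coding, red the retained intron of Eif4enif1, pale blue other coding and orange other transcripts that are not coding. Eef1a1, Eef1b2 and Eif4a3 look alike in both libraries, whereas Eif1a, Eef1d, Eif4g2 and Eif6 do not.

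Genes that work beside the factors were given from lists by name. The count minimum was the same. Of 11 genes of termination, recycling and poly(A) binding, 2 were at least 4-fold higher in replicate 2 and 1 in replicate 1. The poly(A)-binding gene Pabpc1 stood at 289 and 191 TPM and the release factor Gspt1 at 111 and 117, while the recycling factor Abce1 had 168 and 10584 counts. Of 8 genes that modify eIF5A or eEF2, 4 were at least 4-fold higher in replicate 2 and 2 in replicate 1. Dhps and Dohh, which make hypusine on eIF5A, were even at 43.6 and 65.5 TPM and at 84.5 and 55.1 TPM. Those that were apart all belong to the making of diphthamide on eEF2, among them Dph2 with 0 and 1738 counts and Dph7 with 1374 and 0.

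Of 17 regulators of initiation and elongation, 1 was 4-fold higher in replicate 2 and 5 in replicate 1. The kinase gene Mtor had 806 and 0 counts and its partner Rptor 1786 and 0, whereas Atf4, whose product acts downstream of eIF2 phosphorylation, stood at 87.8 and 310.1 TPM. At any fold, 9 of the 17 were higher in replicate 2 and 8 in replicate 1. Among the 9 were Mlst8, with 1284 and 3090 counts, and Rps6kb1, with 2154 and 6789. Of 7 mitochondrial translation factors, 5 were 4-fold higher in replicate 2 and none in replicate 1, among them Tufm with 0 and 1393 counts. Of 19 cytosolic aminoacyl-tRNA synthetases, 1 was 4-fold higher in replicate 2 and 5 in replicate 1. Of 80 cytosolic ribosomal protein genes, 1 was 4-fold apart, Rpl5 at 149.5 and 3.29 TPM. These counts stand beside the same shares over all protein-coding genes, 29.2% and 21.2%. Those shares cover all levels, whereas 77 of the 83 listed ribosomal protein genes were at a mean of 100 TPM or more. Of all protein-coding genes, 15.3% were 4-fold apart from 100 to 200 TPM and 4.40% at 200 TPM or more.

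Messages of translation genes often begin with a C and a run of pyrimidines, a 5′ element through which mTOR controls them, so the start sites of the members were examined. RefSeq promoter sequences (GRCm38.p6) were matched for 50 of the 66. The search took a C followed by 4 or more bases that are each C or T, on the transcribed strand. An annotated start base opened such a match in 2 members (4%), Eif3f and Eif2s3x, in both of which the run already began before that base. A match that opened within 5 bases of a start was present in 13 members (26%). Over all 27025 genes with a sequence the shares were 3.01% and 21.2%, and over 63 cytosolic ribosomal protein genes 20.6% and 46.0%. The members thus lay near the share of all genes by this search. Shown are the highest member and those with the longest runs, then the translocase and the highest eIF3 subunit, which had none within 5 bases; each line has 10 bases before the annotated start and 20 from it on, with the run in capitals.
Eef1a1: ctccgCCCTCTTCCCgagggtgggggagaa
Eif3f: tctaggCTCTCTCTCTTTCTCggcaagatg
Eif2s3x: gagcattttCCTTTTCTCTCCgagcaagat
Eef2: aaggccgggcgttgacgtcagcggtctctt
Eif3k: aaccggcgctggtgctgaaagcgcctttcc
These lie at chr9:78481705-78481734 (minus strand), chr7:108934405-108934434 (plus), chrX:94212632-94212661 (minus), chr10:81176621-81176650 (plus) and chr7:28981869-28981898 (minus). The match is to an annotated start, and the tables do not show where these messages began.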

How the data were processed

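Each library has its own gene and transcript tables. The authors deposited, per entry, an expected count (their estimate of its reads), TPM, posterior means of both, a transcript's percent of its gene, and lengths. The labels give the assembly as mm10, and annotation M4 is named in the deposited text notes. The column names are those of the RSEM program, per the file headers. For the aligner, the counting program and its strand setting, the entry is "not given in the sources used here". The effective length lay 99 bases under the length.

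IDs were looked up in GENCODE M21 (GRCm38) without version, and 42462 were found and 884 were not. Within each library TPM was rescaled to 1000000 over its mouse genes, which held 25999043 and 31902773 counts. Ratios are on the log2(TPM + 1) scale, and genes 4-fold or more apart (a log2 ratio of 2) were called if their counts averaged 100 or more. Folds stated as "at least" use a floor of 3 counts per library. Other count ratios use counts rounded to whole numbers, scaled to mouse counts, with exact 95% intervals. With 1 group no test was made. Counts were rounded for edgeR 4.0.16 and DESeq2 1.42.0 (R 4.3.3), used for scaling only. The rest used Python 3.11.15, pandas 2.3.3 and scipy 1.17.1, and the fold rule and intervals were tested on simulated data. Coding sequences are the longest per gene in M21 among those of whole codons, with any that begin with ATG taken first.

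Members, gene lists, measures and alternatives were chosen with earlier results of these data known. Named were members at a mean of 100 TPM or more, the highest and lowest of each factor, members apart by the rules above, copies, subunits of complexes and up to 5 genes of each list by mean TPM. Rpl5, Mtor, Rptor, Mlst8, Tufm, Abce1 and Dph2 were named after their values were seen. The alternatives were posterior means, other rescalings, count minimums, pseudocounts, folds and scalings, and each library alone.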

Additional observations from a re-analysis of the deposited data

How the results depend on the processing

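Of 60 alternative values, 51 kept the same call or lay within the spread and 9 moved. For the sums and the share of counts, leaving out a library could only count as within the spread. Either of 2 values lies nearer to their mean than 1 SD, so those alternatives say nothing about steadiness. The summed level of all members, 15457 TPM, was 14461 with TPM as deposited and 16121 without mitochondrial genes. It was 10437 without Eef1a1, an alternative chosen after seeing the data, which also took the eEF1 sum to 1108. The eIF1 sum was 1089 TPM with posterior means. The 14 members at 4-fold became 22 at 2-fold and 9 at 8-fold, and 1 among members at a mean of 100 TPM or more, the last chosen after seeing the data. Both pseudocounts, both count minimums, the scalings and posterior means gave 13 or 14, losing Eif2b5 under the scalings and Eif2ak4 with a pseudocount of 5. The median log2 ratio was 0.054 with no count minimum. With scaled counts in place of TPM, the median of all genes, 0.18, was 0.22, 0.27 and 0.29 under edgeR, DESeq2 and spike-in scaling, and that of members, 0.17, was 0.17, 0.22 and 0.24. Members read in both libraries numbered 52 to 58 under other minimums. Leaving out a library gave sums of 15099 and 15816 TPM. It can give no ratio and no count of members read in both. No paired analysis was possible because there is 1 group. Low levels limit what can be said: at 3 or fewer counts a gene may be missing from a library or from the tissue, and the tables do not separate these.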

Other observations

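Processed pseudogenes named for the factors were read at low counts. Eif4a-ps4 had 147 and 433 counts, Eif5al3-ps 25.2 and 25.7, Eif3s6-ps1 10.04 and 30.5, and Eif1-ps1 14.7 and 9.30 in replicates 1 and 2. Gm13456, a processed pseudogene that shares 17.3% of the 100-base stretches of Eef1a1, had 358 and 499 counts, next to 123999 and 169937 for Eef1a1. Gm9892, which shares 18.8% of those of Eif2s2, had 55.6 and 0 counts. In each case the member had more counts than its pseudogene in both libraries.

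Members overlap a protein-coding gene on the other strand in 15 pairs, in 11 of which both genes averaged 100 or more counts. No share over all opposite-strand pairs of genes was counted, so the following split cannot be called particular to the members. As shares of mouse counts, however small the difference, both genes were higher in the same library in 2 of the 11 and in different libraries in 9. The 2 were Eif2a with Serp1 (885 and 2039 against 5419 and 12017 counts) and Eif5b with Rev1 (1833 and 2456 against 698 and 3873). Of the 9, the following are given as examples. Eef2kmt had 1.39 and 1337 counts while Alg1 had 2364 and 2738. In TPM Alg1 stood at 70.0 and 71.6, so by that measure both genes of this pair were higher in replicate 2. Eif2d had 400 and 1 counts while Rassf5 had 6422 and 20561. Eif2ak1 had 2734 and 3963 counts while Aimp2 had 1162 and 2.48. Eif4enif1 had 3899 and 6813 counts and Drg1 6978 and 1975.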
